A study of Mus musculus with 2 samples.

Results

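The sarcomeric myosin heavy chains examined here were Myh4, Myh1, Myh2, Myh7, Myh7b, Myh3 and Myh8, and their rows were found by gene symbol among the 32285 genes of the deposited single-nucleus RNA sequencing counts. All 7 symbols had 1 row each. The counts came from the tibialis anterior (TA), a fast muscle of the lower leg, of male C57BL/6 mice at 6 weeks of age. One library, labelled KO, came from Myf6-Cre+ Bcl6 fl/fl mice, in which the Cre recombinase is driven by the promoter of the muscle gene Myf6, and the other, labelled WT, from littermates that were Myf6-Cre+ and Bcl6 wt/wt, so that both carried the Cre transgene. Nuclei from the right and left TA of 2 mice were pooled into each library, there was 1 library per genotype, and no difference between the libraries could be set against a spread between animals. No test between genotypes was therefore made, and every interval below is an exact 95% interval that covers counting error only.

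Myosin heavy chain is the motor protein of the thick filament. A fast limb muscle of the mouse uses Myh4 in type IIb, Myh1 in type IIx and Myh2 in type IIa fibres, whereas Myh7 belongs to slow type I fibres, Myh3 and Myh8 to embryonic and perinatal muscle, and Myh7b is a minor slow-type gene whose transcript is also known in heart and extraocular muscle. A fibre holds many nuclei in 1 cytoplasm, a fibre that makes more than 1 isoform is called a hybrid fibre, and the RNA captured with a nucleus reports mainly on the genes that nucleus itself was transcribing.

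The WT-labelled library held 3798 barcodes and 11974138 unique molecular identifiers (UMIs, each counting 1 captured RNA molecule once), against 4096 barcodes with 12026013 UMIs in the KO-labelled library, and 6 barcodes occurred in both. After filtering, 2407 of 3674 nuclei in the WT-labelled library and 3086 of 3944 in the KO-labelled library were myonuclei, the nuclei of muscle fibres. They fell in clusters in which 10 myonuclear markers such as Ttn, Neb and Ckm made up 5.32 to 11.7% of UMIs, against 0.151 to 1.37% in the other clusters. The median was 3127 UMIs per myonucleus in the WT-labelled library and 2707 in the KO-labelled library. Bcl6 itself went against the label, with 1475 UMIs in WT myonuclei and 4832 in KO myonuclei (log2 ratio 1.59). The row of Bcl6 does not separate the floxed exons from the rest of the gene, so it does not check the deletion, and the libraries are called WT-labelled and KO-labelled throughout, or WT and KO for short. An exchange of the libraries would turn the sign of every ratio below, and whether one took place was not tested.

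In the mouse genome (GRCm38, GENCODE M21) the genes Myh3, Myh2, Myh1, Myh4, Myh8 and Myh13 lie in this order on the plus strand of chromosome 11, within 293 kb from 67078300 to 67371586. Myh2 (67171027 to 67197517) ends 2.53 kb before Myh1 begins (67200052 to 67224575), and Myh4 (67238029 to 67260446) begins 13.5 kb after Myh1 ends. Myh7 lies on the minus strand of chromosome 14 (54970684 to 54994626) beside the cardiac gene Myh6, and Myh7b on chromosome 2 (155611212 to 155634307). The 250 bases before the RefSeq start of the 3 fast genes (GRCm38.p6, plus strand) are printed below because most nuclei held UMIs of just 1 of these neighbouring genes. The RefSeq starts of Myh4 and Myh1 differ from those of GENCODE, so that the Myh1 window runs into the gene as GENCODE draws it. Capitals mark every run of at least 8 bases that all 3 windows share.
Myh4 (chr11:67237562-67237811): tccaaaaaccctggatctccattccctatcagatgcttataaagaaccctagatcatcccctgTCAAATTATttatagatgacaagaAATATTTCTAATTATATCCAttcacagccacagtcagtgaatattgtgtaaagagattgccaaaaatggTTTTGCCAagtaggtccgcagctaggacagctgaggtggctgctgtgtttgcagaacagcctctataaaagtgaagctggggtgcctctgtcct
Myh1 (chr11:67199852-67200101): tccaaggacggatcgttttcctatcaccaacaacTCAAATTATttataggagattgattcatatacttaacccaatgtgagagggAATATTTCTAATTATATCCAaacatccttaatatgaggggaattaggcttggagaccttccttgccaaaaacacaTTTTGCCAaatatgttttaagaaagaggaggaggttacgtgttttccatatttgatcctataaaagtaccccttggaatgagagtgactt
Myh2 (chr11:67170777-67171026): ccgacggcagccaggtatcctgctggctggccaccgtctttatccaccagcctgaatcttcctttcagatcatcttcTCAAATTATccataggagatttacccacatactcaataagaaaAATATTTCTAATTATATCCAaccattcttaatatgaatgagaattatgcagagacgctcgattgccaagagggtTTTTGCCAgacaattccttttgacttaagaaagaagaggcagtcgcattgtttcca
The longest shared run has 20 bases and begins 163, 165 and 130 bases before the start of Myh4, Myh1 and Myh2. It was found in 0 of 32843 windows of other genes, whereas the shared runs of 9 and 8 bases were in 27 and 160 of them. The E-box CANNTG, the site of MyoD-type factors, occurred 2 times in the Myh4 window and not in those of Myh1 and Myh2, and 66.2% of all 32851 windows held at least 1. The MEF2-type word TAAAAATA (2.45% of all windows), the MEF3 word TCAGGTT (3.49%) and the STAT/BCL6-type word TTCNNNGAA (7.02%) were in none of these 3 windows on either strand. Over the 8 windows of the 7 genes, the 1 window of Myh7b held the MEF2-type word.

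Myh1 was the most abundant member in both libraries, and Myh4 and Myh2 changed places between them. Per kilobase of gene span, the level of Myh1 was 118 CPM (UMIs per 1000000 myonuclear UMIs) in the WT-labelled library and 73.7 in the KO-labelled library. On the same scale Myh4 was at 34.3 and 20.5 and Myh2 at 19.4 and 27.8, so that Myh4 stood above Myh2 in the WT-labelled library and below it in the KO-labelled library. Myh7 was at 0.0236 and 1.41 per kilobase, and Myh7b, Myh3 and Myh8 were below 0.03 in each library.

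Within each gene, the KO-labelled library had less Myh4 and Myh1 and more Myh2 and Myh7. Myh4 had 6794 UMIs in the WT-labelled library and 4427 in the KO-labelled library, or 769 and 460 CPM (log2 ratio -0.74, interval -0.80 to -0.69). Myh1 had 25589 and 17407 UMIs, or 2897 and 1808 CPM (log2 ratio -0.68, interval -0.71 to -0.65). Myh2 had 4543 and 7088 UMIs, or 514 and 736 CPM (log2 ratio 0.52, interval 0.46 to 0.57). These intervals cover counting error only and not the spread between animals, and none of the 3 differences reached 2-fold.

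The slow isoform Myh7 was nearly absent from the WT-labelled library, with 5 UMIs, and had 326 in the KO-labelled library (0.566 and 33.9 CPM, log2 ratio 5.90, interval 4.67 to 7.54). Of the 7 members, 4 reached 200 UMIs over both libraries. Myh7 did so only through the KO-labelled library, so its difference was fixed by that minimum and is not read against other genes. Myh4, Myh1 and Myh2 were neither higher nor lower by 2-fold, and of the 6976 genes with as many UMIs 3.1% were higher and 2.71% lower by 2-fold or more. The median log2 ratio of those genes was -0.15. Relative to that median, the log2 differences were -0.60 for Myh4, -0.54 for Myh1 and 0.66 for Myh2.

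The developmental genes were at the limit of detection. Myh8 had 6 UMIs in each library, spread over 5 WT and 4 KO nuclei. Myh3 had 0 UMIs in the WT-labelled library and 3 in the KO-labelled library, of which 2 were in the cluster with myotendinous junction markers. Myh7b had 6 and 1 UMIs, each in a nucleus of its own. At these counts no difference between the libraries was detectable, and the interval of the log2 ratio of Myh8 ran from -2.03 to 1.78.

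**Figure D1:**
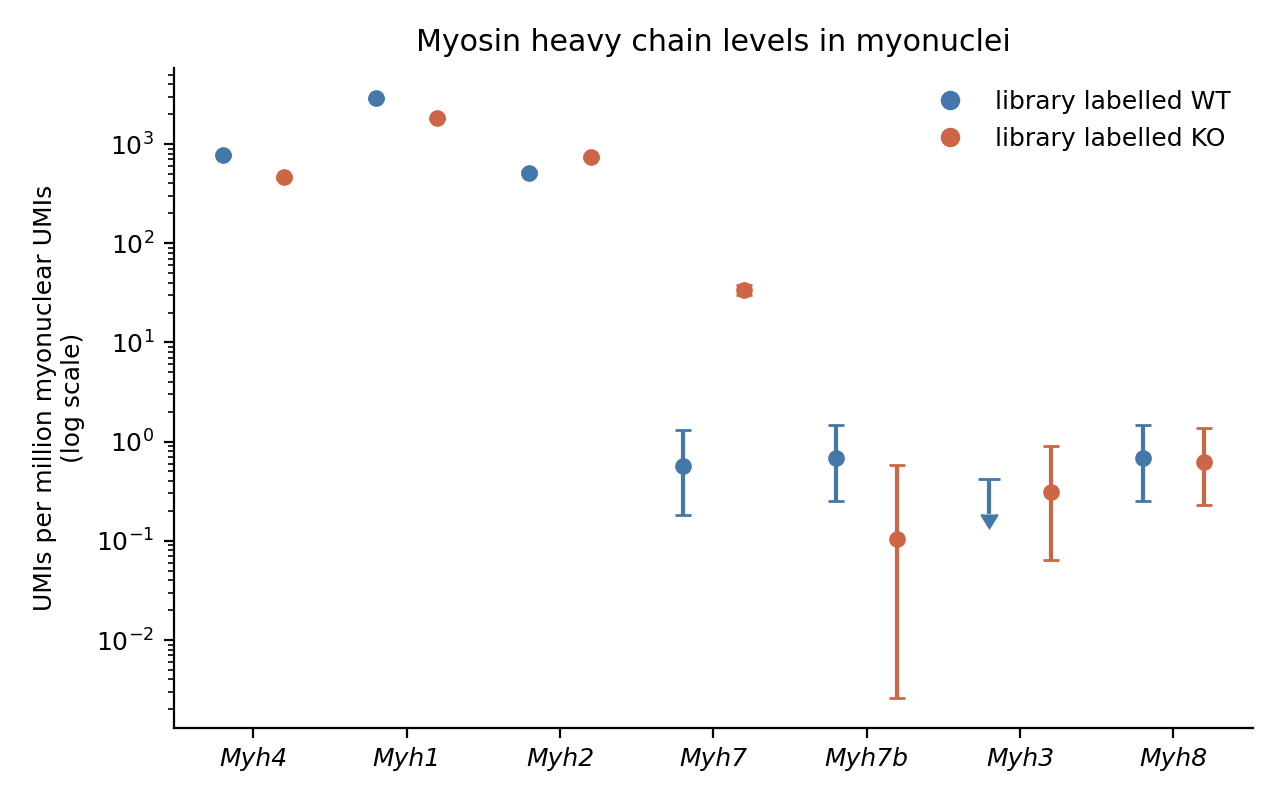
CPM in myonuclei (log scale) of the 7 genes in the WT-labelled library (blue) and the KO-labelled library (orange), with exact Poisson 95% intervals as bars and an arrow from the upper limit where no UMI was counted. Myh4 and Myh1 lie lower and Myh2 and Myh7 higher in the KO-labelled library, and Myh7b, Myh3 and Myh8 have values below 1 CPM in both.

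Heavy chains are made in step with other proteins of the fast or slow sarcomere, and 10 partner genes of each kind were read beside them. Of the 10 fast partners, 1 was higher by 2-fold or more in the KO-labelled library (against 3.1% of all genes tested) and 0 were lower (against 2.71%), and their median log2 ratio of -0.13 was close to the -0.15 of all genes tested. The higher one was Mylpf, the fast regulatory light chain, with 769 and 1760 UMIs (log2 ratio 1.07). Actn3, the Z-disc protein of the fastest fibres, had 1566 and 970 UMIs (log2 ratio -0.82), and Tnnc2, the fast troponin C, had 825 and 1606 (log2 ratio 0.84).

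Of the 10 slow partners, 5 had enough UMIs for the 2-fold count, and 4 of these were higher by 2-fold or more (against 3.1% of all genes tested) and 0 lower, with a median log2 ratio of 1.30. They were Tpm3, the slow tropomyosin (169 and 418 UMIs), Atp2a2, the slow calcium pump (134 and 499), Myoz2, a Z-disc calsarcin (874 and 2349), and Casq2, the calsequestrin of slow and cardiac muscle (193 and 742). Csrp3, the muscle LIM protein, had 403 and 652 UMIs (log2 ratio 0.57). The slow partners with too few UMIs, Myl2, Myl3, Tnnt1, Tnni1 and Tnnc1, had 2 to 15 UMIs in the WT-labelled library and 49 to 66 in the KO-labelled library. Both lists were chosen with earlier results of these data known.

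The 7 genes summed to 36943 UMIs in WT myonuclei and 29258 in KO myonuclei, or 4183 and 3039 CPM (log2 ratio -0.46, interval -0.48 to -0.44). Per nucleus, the total ranged from 0 to 102 UMIs with a median of 11 in the WT-labelled library, and from 0 to 179 with a median of 4 in the KO-labelled library. The quartiles were 3 and 22 UMIs in the WT-labelled library and 1 and 13 in the KO-labelled library. The ranges overlapped, the highest nucleus was in the KO-labelled library, and both quartiles and the median were lower there.

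Nuclei with no heavy chain UMI at all made up 11.3% (interval 10.0 to 12.6) of WT myonuclei and 23.7% (22.2 to 25.2) of KO myonuclei. When every nucleus was reduced to 1000 randomly drawn UMIs (thinned), leaving out 26 and 75 shallower nuclei, the shares were 19.4% of 2381 and 34.8% of 3011. The UMIs were also more concentrated in the KO-labelled library, where the top 10% of nuclei held 42.3% of all heavy chain UMIs, against 33.9% in the WT-labelled library. The total was lower in the KO-labelled library at each depth of nucleus, from 2.66 per 1000 other UMIs against 3.80 in nuclei with fewer than 2000 other UMIs to 3.44 against 4.15 in those with at least 6000.

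**Figure D2:**
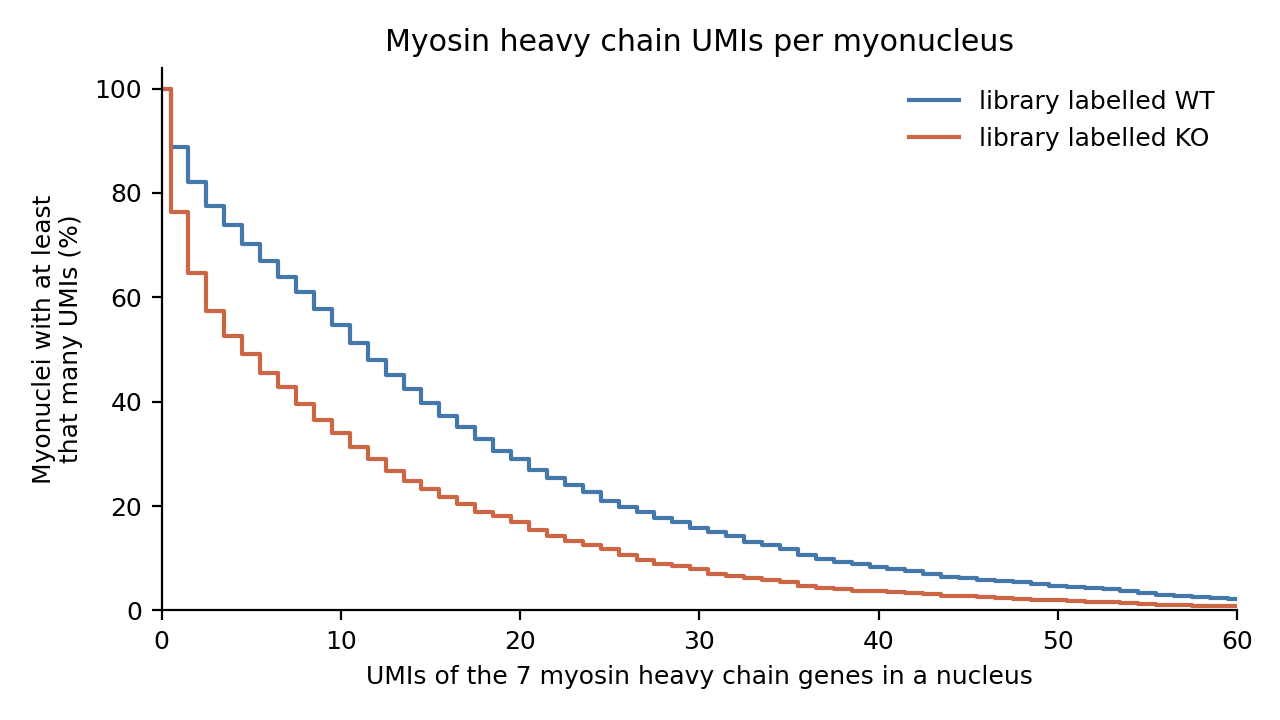
Percentage of myonuclei (y axis) that hold at least the number of heavy chain UMIs on the x axis, for the WT-labelled library (blue) and the KO-labelled library (orange), with the axis ended at 60 UMIs. The KO curve lies below the WT curve, with 34.0% against 54.7% of nuclei at 10 UMIs or more.

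The difference in heavy chain level was uneven over the myonuclear clusters, which were built without the 7 genes and without the genes that differed 2-fold between the libraries. Cluster 0, led by oxidative genes such as Ppara and Ppargc1a, held mostly Myh1, and there the level of Myh1 was 4.94 per 1000 UMIs in the WT-labelled library and 2.21 in the KO-labelled library (log2 ratio -1.16, interval -1.20 to -1.12). Myh2 in the same cluster was at 0.604 and 1.36 per 1000 (log2 ratio 1.17, interval 1.09 to 1.25). Myh2 thus made up 10.8% of the heavy chain UMIs of this cluster in the WT-labelled library and 37.5% in the KO-labelled library.

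In cluster 1, led by Myh7 and Myom3, both Myh1 (log2 ratio -0.20) and Myh2 (-0.18) differed little, and Myh2 held 24.6% and 24.7% of the heavy chain UMIs. Myh7 itself had 4 UMIs there in the WT-labelled library and 324 in the KO-labelled library. In cluster 2, led by Myh4 and the imprinted RNAs Mirg and Rian, Myh4 was at 2.36 and 1.92 per 1000 (log2 ratio -0.30) while Myh1 was at 0.525 and 0.753 (log2 ratio 0.52).

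The lowest KO levels were in 2 other clusters. Cluster 3, led by Ctxn3, Pfkfb3 and Actn3, was nearly pure Myh4, and Myh4 was at 1.54 per 1000 in the WT-labelled library and 0.462 in the KO-labelled library (log2 ratio -1.74, interval -1.87 to -1.61). Of its nuclei, 25.4% of WT and 56.1% of KO nuclei had no heavy chain UMI. Cluster 5, with Nr4a3 and the muscle ubiquitin ligase Trim63 among its leading genes, had Myh4 at 0.919 and 0.0824 per 1000 (log2 ratio -3.48, interval -3.79 to -3.18) and Myh1 at 2.39 and 1.21 (log2 ratio -0.98), with 9.05% and 45.4% of nuclei at no UMI. The KO level of Myh4 in cluster 5 was below the 0.0958 per 1000 counted in KO nuclei outside muscle fibres.

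**Figure D3:**
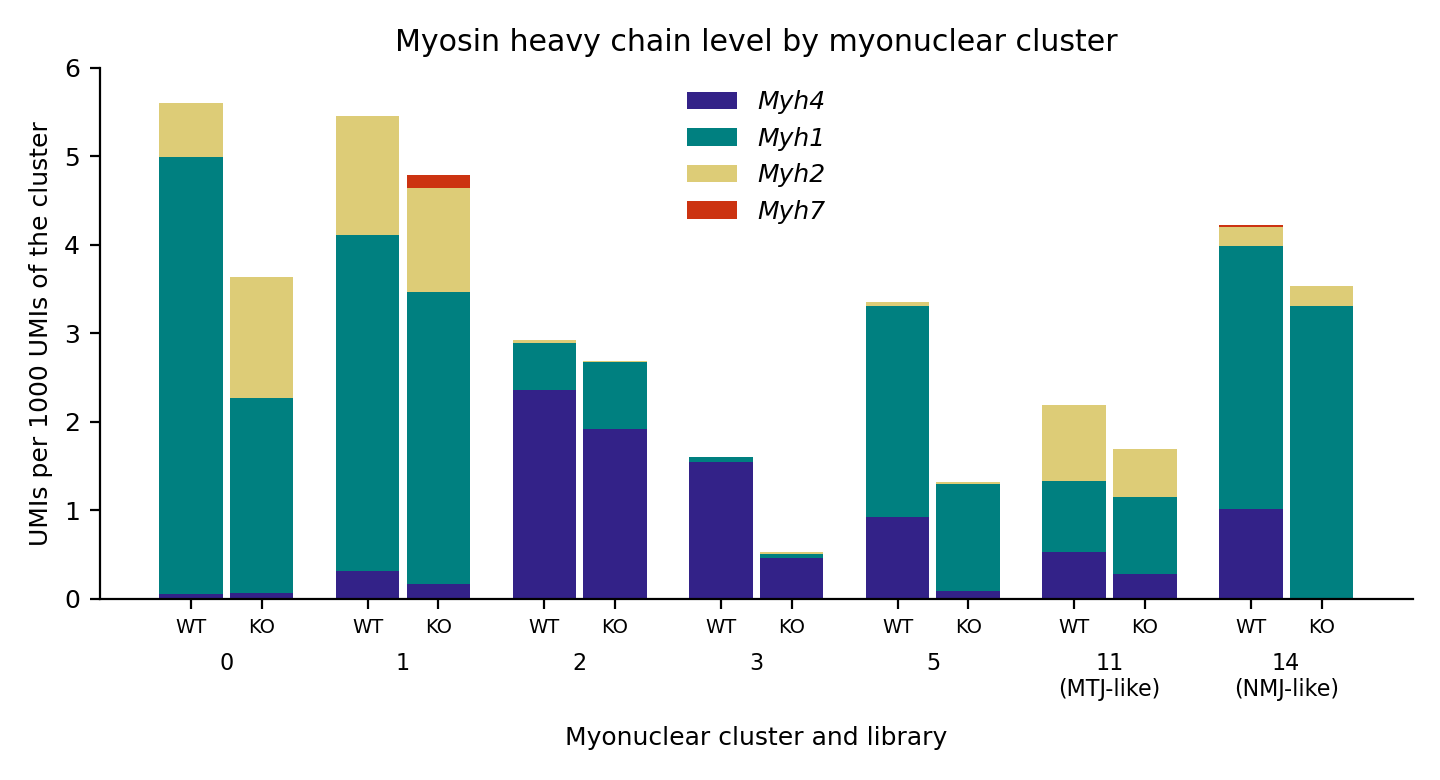
Heavy chain UMIs per 1000 UMIs of each myonuclear cluster (y axis from 0), stacked by gene, with the WT-labelled library left and the KO-labelled library right in each pair; Myh7b, Myh3 and Myh8 are not drawn. The Myh1 part shrinks and the Myh2 part grows in cluster 0, the Myh4 part shrinks in clusters 3 and 5, and Myh7 is visible in cluster 1 of the KO-labelled library. Clusters 11 and 14 hold 8 to 33 nuclei per library.

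Free RNA from broken fibres can put muscle transcripts into any droplet, so its level was read in nuclei that should lack sarcomeric myosin. These held 0.156 heavy chain UMIs per 1000 in the WT-labelled library and 0.220 in the KO-labelled library, against 4.18 and 3.04 in myonuclei. After thinning, 12.9% of 962 and 15.9% of 704 such nuclei had at least 1 heavy chain UMI, against 80.6% and 65.2% of myonuclei, with median depths of 1653 and 1737 UMIs outside fibres. Endothelial-like nuclei, a type that does not use these genes, gave 13.7% and 15.8%. Among the types read separately, the share ran from 7.58% (macrophage-like) to 22.0% (tenocyte-like) in the WT-labelled library. In the KO-labelled library it ran from 2.33% (macrophage-like) to 25.3% (muscle stem cell-like). Single nuclei outside fibres held up to 14 and 26 heavy chain UMIs, and whether all of these were free RNA was not tested.

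Pairs of isoforms differed in how often they were found in 1 nucleus. Myh1 and Myh4 were seldom found together, in 3.78% (interval 3.05 to 4.63) of thinned WT nuclei and 2.79% (2.23 to 3.44) of KO nuclei, far below the products of their single shares, 13.9% and 7.26%. Myh2 and Myh4 were found together in 0.546% (0.291 to 0.932) of WT and 0.897% (0.592 to 1.30) of KO nuclei, below products of 3.62% and 3.19%. Myh1 and Myh2 were found together in 6.97% (5.98 to 8.07) and 6.84% (5.97 to 7.80), close to products of 6.83% and 6.82%.

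Seen from the rarer partner, 52.2% of the 318 WT nuclei with Myh2 also held Myh1, and 4.09% also held Myh4. In the KO-labelled library, 39.5% of 521 such nuclei held Myh1 and 5.18% held Myh4. After the same thinning, 4.89% of WT and 7.24% of KO nuclei outside fibres held Myh4, and 6.86% and 8.10% held Myh1. How much of the Myh4 found with Myh2 or Myh1 was free RNA was not tested. Most nuclei showed a single isoform at this depth, 69.6% in the WT-labelled library and 54.9% in the KO-labelled library, and 10.9% and 9.90% showed 2. A combination of 3 isoforms was found in 4 WT and 11 KO nuclei.

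The pairs were also read among nuclei with alike numbers of heavy chain UMIs. In nuclei with 10 to 19 of them, Myh1 with Myh4 was found in 14.8% (product 27.6%) of 620 WT and 10.5% (product 20.4%) of 526 KO nuclei. Myh1 with Myh2 was found in 16.0% (product 15.3%) and 24.0% (product 24.7%). The higher Myh1 and Myh2 share of the KO-labelled library in this band went with a Myh2 share of 33.5% of nuclei against 21.6%. Both pairs with Myh4 lay below their products in each band up to 39 UMIs. In nuclei with at least 40, Myh1 and Myh4 were found together in 11.4% (product 14.0%) of 201 WT and 17.7% (product 17.9%) of 113 KO nuclei. Myh1 was in 97.0% and 92.0% of these nuclei, which left this pair little room below its product. Myh2 and Myh4 were found together in 3.48% (product 2.94%) and 7.08% (product 8.27%), or 7 and 8 nuclei. Which pair was the more frequent also changed with the band. In nuclei with 2 to 4 UMIs, Myh1 with Myh4 was found more often (15.2% and 12.9%) than Myh1 with Myh2 (5.88% and 9.15%).

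**Figure D4:**
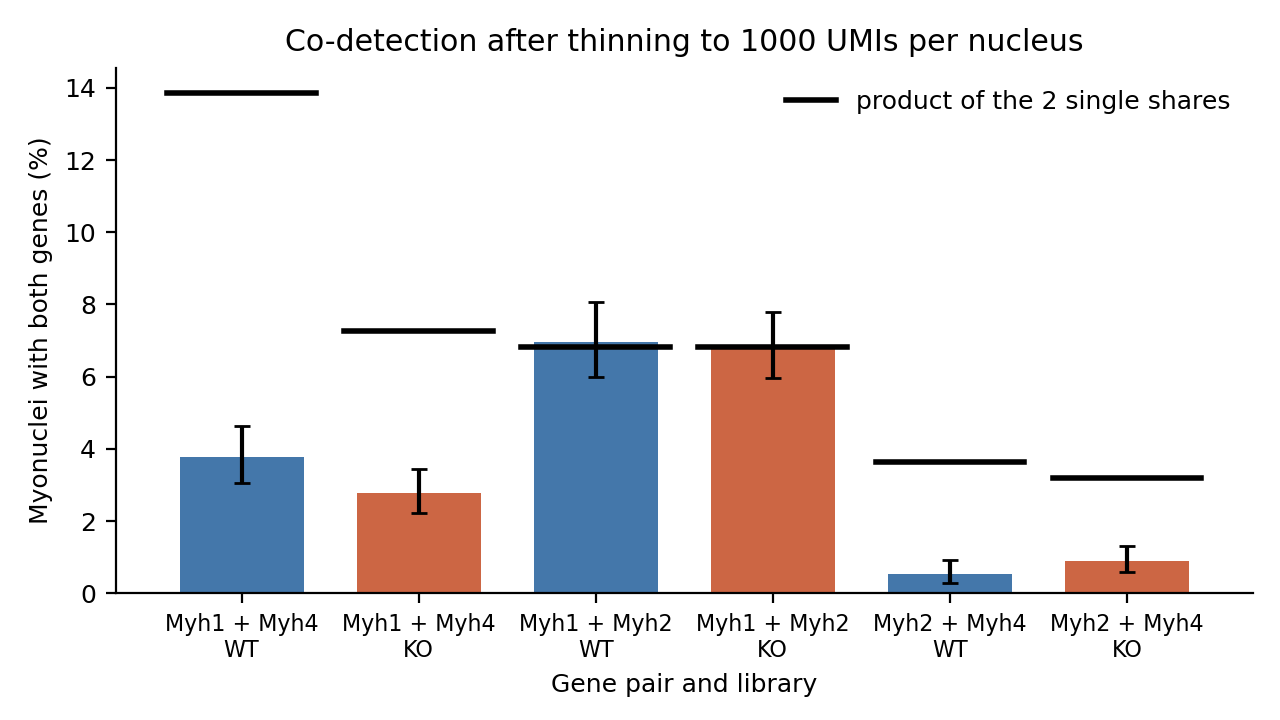
Percentage of myonuclei, thinned to 1000 UMIs each, in which both genes of a pair had at least 1 UMI, for each library, with exact binomial 95% intervals as error bars and the product of the 2 single shares as a black line. The bars of the pairs with Myh4 lie far below their lines, and those of Myh1 and Myh2 reach theirs.

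The composition of single nuclei was close to all or none. Among nuclei with at least 10 UMIs of Myh1 and Myh4 together, the Myh4 share lay between 20 and 80% in 18 of 1138 WT nuclei (1.58%) and 20 of 765 KO nuclei (2.61%). For Myh2 and Myh4 it lay there in 4 of 436 (0.917%) and 2 of 406 (0.493%). The Myh2 share of Myh1 and Myh2 was intermediate more often, in 95 of 1044 WT nuclei (9.10%) and 85 of 874 KO nuclei (9.73%).

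The end of this scale that was filled differed between the libraries. A Myh2 share of 90% or more was found in 9.20% of WT and 19.3% of KO nuclei with at least 10 UMIs of Myh1 and Myh2. No Myh2 UMI at all was found in 73.7% of these WT nuclei and 58.4% of these KO nuclei. Of the nuclei with a Myh2 share of 90% or more, 35 of 96 in the WT-labelled library and 73 of 169 in the KO-labelled library had no Myh1 UMI.

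**Figure D5:**
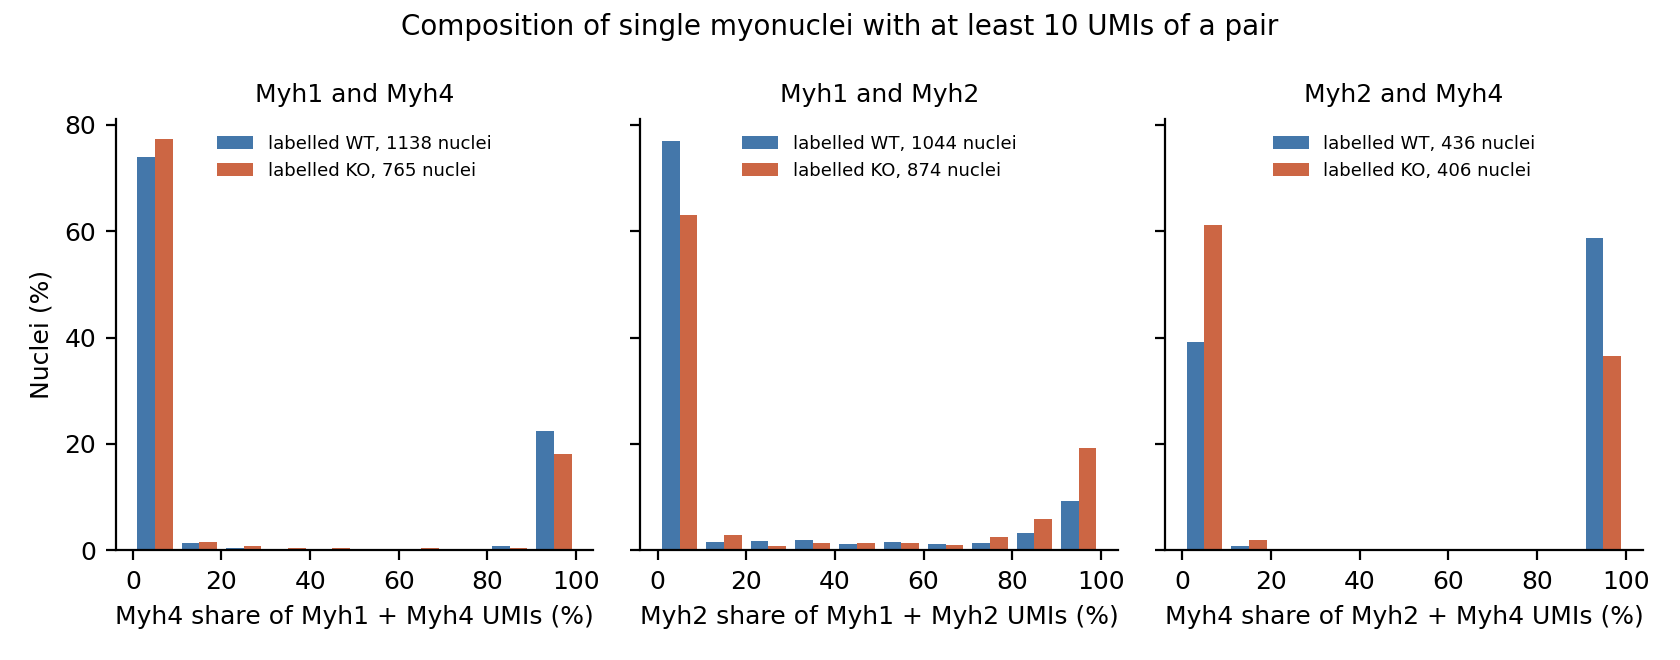
Share of the second gene of a pair among the UMIs of both (x axis, in steps of 10%) and the percentage of nuclei in each step (y axis), for nuclei with at least 10 UMIs of the pair, in the WT-labelled library (blue) and the KO-labelled library (orange). Nuclei gather at the ends in all 3 pairs, and the middle is filled at a low level in the pair of Myh1 and Myh2, where the KO bars are higher at the Myh2 end.

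A hybrid nucleus was then defined at 1 fixed depth: 10 heavy chain UMIs were drawn from every nucleus that had at least 10, and the nucleus was a hybrid when its second isoform held at least 20% of them. Nuclei with at least 10 were 1317 (54.7%) of WT and 1049 (34.0%) of KO myonuclei. Of these, hybrids made up 11.2% (interval 9.58 to 13.1) in the WT-labelled library and 12.96% (11.0 to 15.1) in the KO-labelled library, and the intervals overlap. The percentage depends on the cut-off, from 6.68% and 8.01% at a second isoform of 30% to 24.7% and 27.6% at one of 10%.

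The hybrid classes followed the same order as the pairs. Myh1 with Myh2 was the most common, in 121 WT nuclei (9.19%, interval 7.68 to 10.9) and 109 KO nuclei (10.4%, 8.61 to 12.4). Myh4 with Myh1 was found in 21 (1.59%) and 24 (2.29%) nuclei. Myh4 with Myh2, which skips the isoform between them in the usual order of fibre types, was found in 6 nuclei and 1 nucleus.

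The classes with a single isoform differed more. Of the 1317 WT and 1049 KO nuclei with at least 10 heavy chain UMIs, 61.0% (58.3 to 63.6) and 53.3% (50.2 to 56.3) were Myh1 nuclei. Myh4 nuclei were 19.5% (17.4 to 21.8) and 13.5% (11.5 to 15.8). Myh2 nuclei were 8.28% (6.84 to 9.90) and 18.9% (16.5 to 21.4). These 3 pairs of intervals do not overlap, but they cover counting error only and not the spread between animals.

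Of nuclei classed with Myh2, alone or in a hybrid, 127 of 236 (53.8%, interval 47.2 to 60.3) were hybrids in the WT-labelled library. In the KO-labelled library 111 of 309 (35.9%, 30.6 to 41.5) were hybrids. Of nuclei classed with Myh4, alone or in a hybrid, 9.51% of 284 and 15.0% of 167 were hybrids, with overlapping intervals. Nuclei of other classes that held a few UMIs of the gene are not counted here. By cluster, hybrids were most frequent in cluster 1, with 20.7% of 357 WT and 18.5% of 400 KO nuclei, against 9.38% of 608 and 12.3% of 406 in cluster 0. In the Myh4 clusters 2 and 3 they were 0 to 6.06%. Cluster 5 went the other way from cluster 0, with hybrids in 10 of 115 WT nuclei (8.70%) and 1 of 55 KO nuclei (1.82%).

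The share of isoform pairs that were mixed was 9.35% over the 1978 WT nuclei and 12.5% over the 1996 KO nuclei with at least 2 heavy chain UMIs. It is the chance that 2 UMIs of a nucleus, picked at random, belong to different isoforms. Over nuclei with at least 5 heavy chain UMIs it was lower, 8.09% and 10.0%. Of the share over all these nuclei, Myh1 with Myh2 gave 4.69 and 6.54 percentage points, Myh1 with Myh4 3.96 and 4.40, and Myh2 with Myh4 0.649 and 1.32. All heavy chain UMIs were of 1 isoform in 70.6% and 66.7% of the nuclei with at least 2. By cluster, the WT and KO shares of mixed pairs were 7.43% and 12.5% in cluster 0 and 8.48% and 23.9% in cluster 3. Clusters 1 (13.8% and 14.6%), 2 and 5 (10.8% in both) differed little. In the small clusters 11 and 14 the shares were 8.13% and 16.3%, and 11.4% and 8.93%. In cluster 3 the median KO nucleus had 0 heavy chain UMIs. Nuclei outside fibres held 0.156 and 0.220 per 1000. How much of the mixed share came from free RNA was not tested.

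Doublets and free RNA were read beside the hybrids. The median doublet score was 0.0361 in hybrid and 0.0420 in single-isoform WT nuclei, and 0.0260 and 0.0309 in KO nuclei, and the median depth was 3666 and 3824 UMIs in the WT-labelled library and 4028 and 3557 in the KO-labelled library. By hybrid class, the median score in WT and KO nuclei was 0.0313 and 0.0250 for Myh1 with Myh2. For Myh4 with Myh1 it was 0.0718 and 0.0358, against 0.0468 and 0.0370 in Myh1 nuclei and 0.0328 and 0.0204 in Myh4 nuclei. The 6 WT nuclei of Myh4 with Myh2 had a median score of 0.104, and the 1 KO nucleus had 0.0620. In nuclei classed as Myh4, the level of Myh1 was 0.0506 and 0.0464 per 1000 UMIs, below the 0.0736 and 0.0897 of nuclei outside fibres, and in nuclei classed as Myh2 it was 0.354 and 0.349, above them. By definition, a Myh4 or Myh2 nucleus held at most 1 Myh1 UMI among the 10 drawn. Its Myh1 level was thus limited by the class, whereas nuclei outside fibres were not chosen in this way.

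Nuclei with Myh7 were few. The WT-labelled library had 2, with 4 and 1 UMIs. The KO-labelled library had 24, with 1 to 47 UMIs and a median of 12.5, and 15 of them had at least 10 Myh7 UMIs and held 298 of the 326. Of the 24 nuclei, 22 were in cluster 1. All 24 together held 48 UMIs of Myh1, 26 of Myh2 and 10 of Myh4.

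In those 15 nuclei Myh7 made up 85.0 to 100% of the heavy chain UMIs, with 6 UMIs of Myh1, 3 of Myh2 and 2 of Myh4 in all. In the hybrid classes, 14 KO nuclei (1.33%) were Myh7 nuclei, 1 was Myh1 with Myh7 and 1 was Myh2 with Myh7. Their doublet scores ran from 0.0154 to 0.0426. The 15 nuclei were chosen by their Myh7 UMIs, which are given as a description.

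Other slow genes stood in the same 15 nuclei. Atp2a2 was at 6170 CPM there and 12.4 in the other 3071 KO myonuclei, Tpm3 at 3815 and 19.1, Tnni1 at 1023 and 0.209, and Myl2 at 958 and 0.732. The fast genes Tnnt3 and Mylpf had 6 and 0 UMIs in these nuclei, where the other KO myonuclei had 1181 and 184 CPM.

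This divided the slow partners that were higher in the KO-labelled library. The 15 nuclei held 380 of the 499 UMIs of Atp2a2 and 235 of the 418 of Tpm3, and the other KO myonuclei had 12.4 and 19.1 CPM, against 15.2 and 19.1 in all WT myonuclei. They held 105 of the 2349 UMIs of Myoz2 and 8 of the 742 of Casq2, and the other KO myonuclei had 235 and 76.7 CPM, against 99.0 and 21.9 in the WT-labelled library. How many fibres these 15 nuclei came from is not known.

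Across single nuclei, the genes most alike Myh4 in both libraries were Mybpc2, the fast myosin-binding protein C, Fmnl2, Phkb, Tpm1 and Gpd2. For Myh1 they were Ank2, Mybpc1, Actn2, Ckmt2 and Esrrg, and for Myh2 Myoz2, Myom3, Qk, Mybpc1 and Actn2. Likeness was the lower of the correlations of log-normalised counts over the 2407 WT and 3086 KO nuclei, among 4757 genes. The leading values were 0.38 and 0.32 for Myh4 with Mybpc2, 0.60 and 0.47 for Myh1 with Ank2, and 0.44 and 0.44 for Myh2 with Myoz2. Myh4 with Myh1 gave -0.54 and -0.29, and Myh1 with Myh2 gave -0.01 in both libraries. These are descriptions over nuclei that share a library and its depth.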

How the data were processed

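Nuclei of TA muscle were sorted and pooled from 2 mice per genotype into 1 library each. Raw UMI counts of every barcode, whole numbers without normalization, were deposited by the authors, made with Cell Ranger 7.0.0 on mm10, and the submitters' processing notes also name Seurat 5.0.3. Whether intronic reads were counted is not given in the sources used here. The study's methods name a 3′ gene expression kit and the labels a Multiome chip.

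Barcodes with 200 to 5000 genes and at most 5% mitochondrial UMIs were kept, which removed 9 and 18. Scrublet (scanpy 1.11.5) scores removed the top 0.8% per 1000 barcodes, 115 and 134. Seurat 5.3.0 integrated the libraries by RPCA on 2000 variable genes and 30 components without 414 genes (the 7 members and 408 genes 2-fold apart, Myh7 among them, over the nuclei called by their own markers) and clustered them. Clusters with at least 3% of UMIs in 10 markers were myonuclear. By their own markers at that cut-off, 2392 and 3071 of the same nuclei were called.

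UMIs were summed over myonuclei and divided by all myonuclear UMIs. Intervals were Poisson, Clopper-Pearson or, for ratios, conditional on the total (scipy 1.17.1). Nuclei were thinned with seed 1. The statistics were tested on simulated data. Upstream sequences are from the RefSeq table, and 8 windows matched the 7 members. The members, partner lists, marker lists and the rule for named genes (members, partners past 2-fold, 5 most alike genes) were chosen with earlier results of these data known. Actn3, Tnnc2, Tnnt3, Csrp3 and the slow genes of the Myh7 nuclei were named after their values were seen. Reads in stretches that isoforms share could be lost or split. Of all 50-base words in the transcripts, 18.6% of Myh4, 24.8% of Myh1, 22.7% of Myh2 and 0.147% of Myh7 occur in another member. In the last 1000 bases of the longest transcript of each, these shares were 20.4%, 33.0%, 33.5% and 0%. Alternatives are listed in the closing section. No column of another sample was present.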

Additional observations from a re-analysis of the deposited data

Results flagged for a closer look

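The antisense transcript Myhas, which is not a heavy chain, gave a signal outside the main measurement. It lies on the minus strand of chromosome 11 (67211256 to 67237573), overlaps the end of Myh1, and its annotated 5′ end is 239 bases before the RefSeq start of Myh4, inside the Myh4 window printed above. It had 2737 UMIs in WT myonuclei and 985 in KO myonuclei, or 310 and 102 CPM (log2 ratio -1.60, interval -1.71 to -1.49), beyond the differences of Myh4 and Myh1. By class of nucleus, its level was 685 and 296 CPM in Myh4 nuclei, 242 and 192 in Myh1 nuclei and 29.5 and 12.3 in Myh2 nuclei. Its strand rests on the authors' counting, which was not tested.

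The barcodes removed as doublets were a second source that the comparisons did not use. Of those with at least 10 heavy chain UMIs, 7 of 50 (14.0%, interval 5.82 to 26.7) were hybrids in the WT-labelled library. In the KO-labelled library 12 of 49 (24.5%, interval 13.3 to 38.9) were hybrids. Among the kept nuclei with at least 10 heavy chain UMIs, hybrids were 11.2% and 12.96%. Both intervals overlap those of the kept nuclei.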

How the results depend on the processing

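The log2 ratios of Myh4, Myh1, Myh2, Myh7 and of the 7 genes together kept their direction under all 10 alternatives to the reported settings, and the hybrid share (11 alternatives), the share of mixed pairs (7) and the share of nuclei without a heavy chain UMI (8) were higher in the KO-labelled library under each. The co-detection of Myh1 and Myh2 was higher in the KO-labelled library under 4 of 9 settings, so that no direction is given. Of 96 alternative values of the main results, 64 stayed within the counting interval (for counts of genes, within 1.5 times) and 32 did not, and these follow. The cause of a move was not tested except where fewer or more UMIs or nuclei enter by construction.

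The log2 ratio of the 7 genes together was -0.34 with DESeq2 size factors, -0.34 with edgeR TMM factors, -0.33 over all nuclei and -0.69 as a mean of UMIs per nucleus. The hybrid share in the libraries labelled WT and KO was 16.9% and 22.0% with 5 UMIs per nucleus, 8.73% and 10.1% without thinning, 24.7% and 27.6% with a second isoform of at least 10%, 6.68% and 8.01% with at least 30%, and 8.46% in the WT-labelled library with 20 UMIs. The mixed share was 8.09% and 10.0% over nuclei with at least 5 heavy chain UMIs and 6.65% and 9.92% with pairs pooled over nuclei. Nuclei without a heavy chain UMI were 12.5% and 25.1% when thinned to 2000 UMIs and 11.3% and 23.7% without thinning. Co-detection when thinned to 2000 UMIs was 10.9% and 11.2% for Myh1 and Myh2 and 6.71% and 5.34% for Myh1 and Myh4, and without thinning 12.6% and 13.5%, and 12.3% and 8.04%. For Myh1 and Myh2 the ratio of observed to product was 1.02 and 1.00 at 1000 UMIs, 1.20 and 1.07 at 2000 and 1.28 and 1.24 without thinning. Without doublet removal Myh1 and Myh4 were found together in 4.77% of WT nuclei. With at least 50 UMIs per gene, 419 genes were higher and 403 lower by 2-fold or more, in place of 216 and 189.

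No paired analysis was possible because each genotype had 1 library. No replicate was left out for the same reason. A difference between animals, dissections or captures cannot be told apart from the genotype. Depth limits Myh7b, Myh3 and Myh8, which were found in 1, 0 and 3 of the 2381 thinned WT nuclei. The exact interval of the 0 of Myh3 allows a share of up to 0.155%.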

Other observations

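Heavy chain genes that are not members gave single counts. Myh6, the cardiac alpha chain beside Myh7, had 2 UMIs in the WT-labelled library and 6 in the KO-labelled library. Myh13, the chain of extraocular muscle at the end of the chromosome 11 cluster, had 1 UMI in the WT-labelled library and 15 in the KO-labelled library, all 15 in 1 nucleus. Myh15 had 0 and 1.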
